A study of Mus musculus with 60 samples.

Results

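Pasteurellaceae is a family of Gram-negative bacteria that live on the mucous surfaces of mammals and birds. Its members here are all sequence features, each a distinct amplicon sequence of the 16S rRNA gene, whose deposited lineage names the family: 237 of 8574 features in the table, with 2008638 counts. They fall under 5 named genera and a group without a genus name. The amplicons cover the V3 to V4 stretch of the gene and come from male mice in a study of the bacteria of gut, lung and mouth under nanoplastic exposure. PET mice received nanoplastics of polyethylene terephthalate by gavage, 0.5 mg a day in 0.1 ml for 28 days, and control mice were not exposed. Each arm had 6 libraries of oral swab, lung tissue, colon tissue and stool at day 28, and 6 of stool after 1 week, which makes 60 libraries in 10 groups. The design text gives 12 mice, and neither their strain nor their age is stated in the labels. No label ties a library to a mouse across sites, so p-values measure the spread between libraries.

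Library totals ran from 119454 to 428830 counts in oral swabs, from 10543 to 326834 in lung, from 59063 to 280575 in colon and from 16521 to 1083575 in stool. Stool and oral swab DNA came from a soil kit, and lung and colon DNA from a blood and tissue kit. The kit therefore cannot be told apart from the site, except between oral swab and stool and between lung and colon. A share below is the percent of a library's prokaryote counts, so that more of one bacterium and less of the others cannot be told apart. For oral shares above 1% the 95% Wilson interval reached at most 0.283 percentage points to either side. Such intervals cover counting error only, since PCR copies without molecular identifiers are not independent molecules.

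Muribacter and Rodentibacter are genera of the family known from rodents. Muribacter muris, once called Haemophilus influenzaemurium, is a common inhabitant of the mouse mouth and upper airway. Rodentibacter gathers the species once called Pasteurella pneumotropica and its relatives, opportunists of the rodent respiratory and genital tract for which laboratory colonies are screened. Haemophilus and Aggregatibacter are best known from the human mouth and throat, and Actinobacillus from livestock. The deposited labels matched these roles for the abundant features. Muribacter muris was the species label of 50 features with 1911784 of the genus's 1913719 counts, and 3 further Muribacter features carried the old Haemophilus influenzae-murium name. In Rodentibacter, 1 feature was labelled R. pneumotropicus (53827 counts) and 3 were labelled R. heylii (30308 counts). The Haemophilus species labels, where given, were those of species known from people, led by H. parainfluenzae in 5 features with 2443 counts. In Aggregatibacter, 9 features had the species label of an Azospirillum, a soil genus outside the family, so that these species names did not follow the genus. Species names of the genus itself were given to 4 features (Aggregatibacter aphrophilus) and to 1 (Aggregatibacter segnis). No Actinobacillus feature had an Actinobacillus species label. Of these features 2 were labelled Haemophilus parahaemolyticus, 4 an uncultured Haemophilus and 1 an uncultured organism, and 6 had no species label. Classifier confidence of the 237 members ran from 0.707 to 1, with a median of 0.994. The table gives features by code and not by sequence, so the amplicons themselves are not shown.

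The family divided into a few abundant rodent features and many rare others. Muribacter held 95.3% of the family's counts in 61 features and Rodentibacter 4.19% in 9 features. Haemophilus held 0.231% in 61 features, features without a genus name 0.203% in 69, Actinobacillus 0.0584% in 13 and Aggregatibacter 0.0416% in 24. The 2 rodent genera thus took 99.5% of the counts with 70 features, while the other 4 groups took 0.533% with 167 features (70.5% of the members). Of those 167 features, 164 were seen in 1 library only, against 73.8% of all prokaryote features in the table. No single-library feature of the family exceeded 396 counts. Only 23 of the 237 members were detected in 3 or more libraries.

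In the mouth Muribacter was the leading Pasteurellaceae genus in 12 of 12 swabs. Its share of prokaryote counts was 36.02% at the lowest, 49.0% at the median and 67.5% at the highest in PET swabs, and 22.2%, 52.7% and 69.9% in control swabs. The means were 50.1% ± 12.5 in PET and 51.3% ± 16.4 in control swabs (SD, n = 6 each), and the ranges overlapped over most of their length. The lowest swab of all was control library 1.

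Rodentibacter was present in every swab but spread over a far wider range. PET swabs ran from 0.126% to 22.4% with a median of 0.795%, and control swabs from 0.250% to 3.88% with a median of 1.6%. The highest swab, PET library 5, had 30158 Rodentibacter counts, and the next, control library 3, had 14028. Muribacter outnumbered Rodentibacter 1.68 to 1 in PET library 5 and 384.6 to 1 in PET library 1, with a median ratio of 38.3 over the 12 swabs. Together with the minor genera the family made up 36.5% to 68.1% of PET swabs and 23.6% to 71.8% of control swabs.

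**Figure D1:**
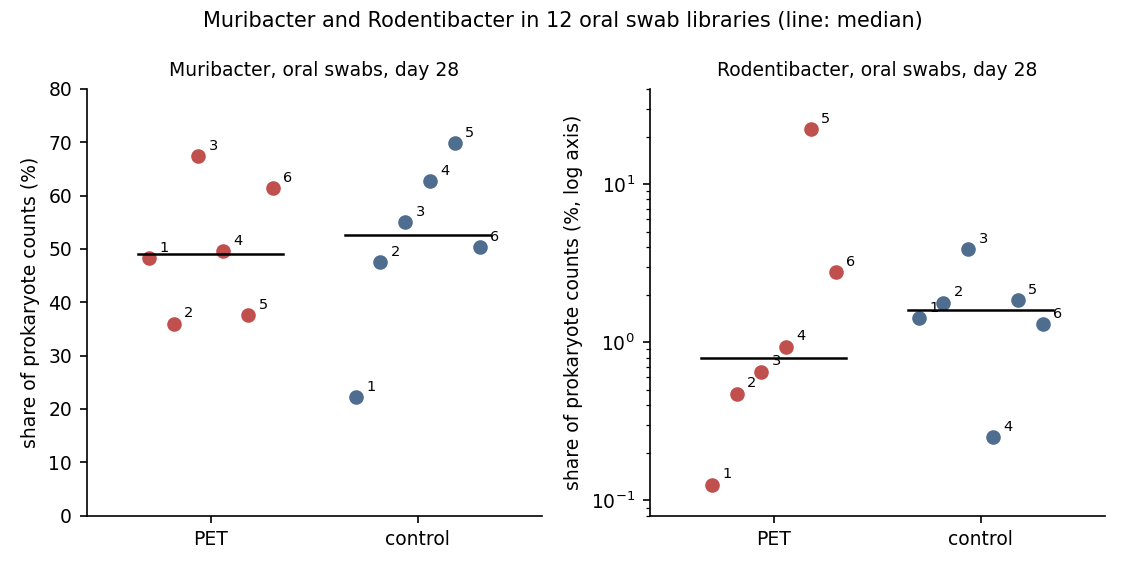
Share of prokaryote counts of Muribacter (left, linear axis, %) and Rodentibacter (right, log axis, %) in each of 6 PET and 6 control oral swab libraries at day 28, with the library number beside each point and a line at the median. Muribacter medians are 49.0% in PET and 52.7% in control swabs, and PET library 5 stands alone at 22.4% Rodentibacter.

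Nearly all Muribacter of a swab lay in the genus's 5 most abundant features, ranked here by their counts over all libraries. Of these 5, 4 exceeded 1% of the genus in 8 swabs, 2 did in 3 swabs and 1 did in PET library 6. They held together between 98.5% and 99.96% of the genus in every swab, but which of them led differed from swab to swab. Muribacter feature 3 led in PET libraries 1, 2 and 3, at 38.7%, 86.4% and 46.05% of the genus. Feature 2 led in PET libraries 4 and 5 (46.7% and 56.8%) and in control libraries 1, 2 and 6 (50.9%, 73.4% and 65.5%). Feature 1 made up 98.5% of the genus in PET library 6 and 83.9% in control library 4, so that these swabs were close to a single sequence. Feature 4 led in control libraries 3 and 5, at 58.9% and 54.9%.

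Muribacter feature 4 was the most unevenly spread of the 5. It had 56 counts in PET library 4 and none in the other PET swabs, while control libraries 3 and 5 had 117182 and 164483 counts and the other 4 control swabs none. Features 3 and 5 kept a near-constant ratio. In 8 of the 9 swabs with more than traces of both, feature 3 had 2.08 to 2.20 times the counts of feature 5, and in PET library 2 it had 7.03 times as many. Whether these features share a genome was not tested. Feature 6 had at most 0.225% of prokaryote counts, in control library 5. Feature 7 was seen in 3 PET swabs and no other library, at 0.0773% of prokaryote counts in library 2, 0.0318% in library 3 and 0.485% in library 5.

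**Figure D2:**
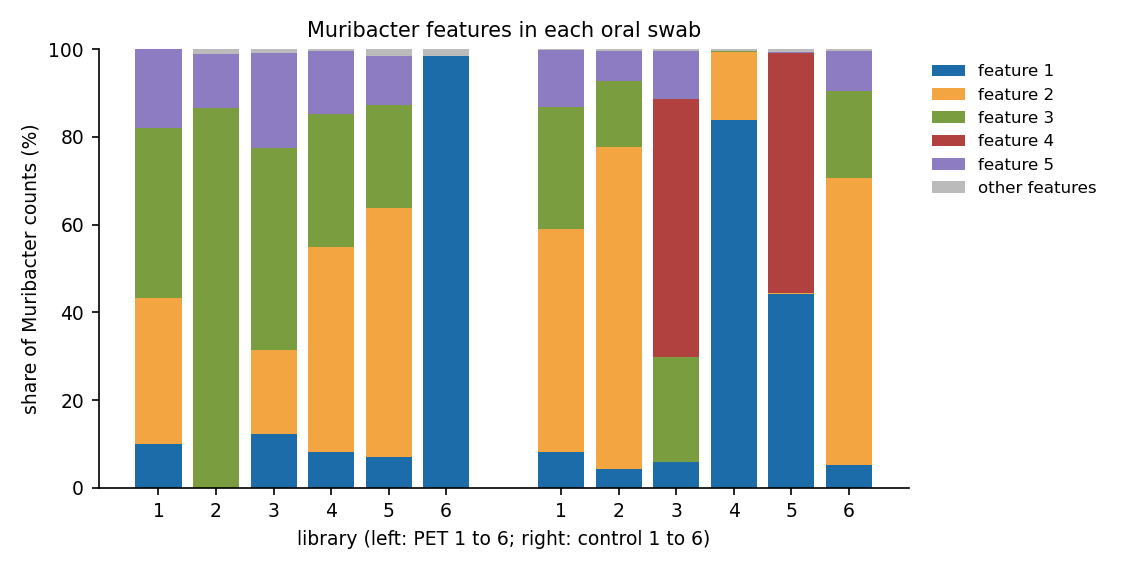
Stacked share of each swab's Muribacter counts (%, linear axis from 0) held by the 5 most abundant features of the genus and by all its other features, for PET libraries 1 to 6 (left) and control libraries 1 to 6 (right). Feature 4 takes over 50% of the genus in control libraries 3 and 5 and is at most 0.033% of it in PET swabs, and PET library 6 is almost wholly feature 1.

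Rodentibacter had 2 main features, and many swabs held one of them almost alone. Rodentibacter feature 1, labelled R. pneumotropicus, was detected in 9 of 12 swabs. It had 610, 24537 and 8745 counts in PET libraries 3, 5 and 6 and none in PET libraries 1, 2 and 4, against 708 to 7539 counts in the control swabs. Rodentibacter feature 2, labelled R. heylii, was detected in 10 of 12 swabs. It had 150 to 5589 counts in PET swabs, and 189, 4084, 6476 and 5322 in control libraries 1, 2, 3 and 5 with none in control libraries 4 and 6. PET library 5 was high in both, at 18.2% of prokaryote counts for feature 1 and 4.15% for feature 2. PET libraries 1, 2 and 4 thus held R. heylii almost alone, and control libraries 4 and 6 only R. pneumotropicus.

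PET exposure was compared with no exposure in the mouth by edgeR's quasi-likelihood test on counts, with Benjamini-Hochberg adjustment over all taxa tested and a threshold of 0.05. No member passed. The family's log2 fold change, PET over control, was 0.70 ± 0.70 (standard error, here and below; adjusted p = 0.803). Muribacter was at 0.69 ± 0.70 (adjusted p = 0.825), and its direction turned to -0.03 when library totals replaced the TMM scaling. Rodentibacter was at 0.57 ± 0.87 (adjusted p = 0.911), Aggregatibacter at 2.95 ± 1.74, Haemophilus at -1.66 ± 2.15 and the features without a genus name at -1.05 ± 2.02 (adjusted p from 0.786 to 0.911), and Actinobacillus had no count in any swab. Neither rodent genus thus differed by more than its standard error. Of the features, 21 of the 237 could be tested and 0 passed, with 4 at an unadjusted p under 0.05. Muribacter feature 4 was at -10.24 ± 4.32 (adjusted p = 0.631) and Muribacter feature 7 at 9.87 ± 2.67 (adjusted p = 0.411). DESeq2 called these and no other member (adjusted p = 0.020 for feature 4 and 0.022 for feature 7). Feature 7, seen in 3 PET swabs alone, met the filter of 3 libraries through the PET group only. In this comparison 0% of 91 families, 0% of 175 genera and 0% of 460 features passed the threshold, with 7, 7 and 29 at an unadjusted p under 0.05.

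The family's 2 rodent genera belonged to the mouth. Of all Muribacter counts 99.8% lay in the oral swabs, and of Rodentibacter counts 99.7%. Muribacter averaged 50.7% ± 13.96 in the 12 swabs, 0.348% ± 0.371 in lung, 0.0506% ± 0.0491 in colon and 0.0217% ± 0.0150 in stool at day 28 (SD, n = 12 each). As ratios of pooled shares, the oral level was 309 times that of lung, 1180 times that of colon and 2320 times that of stool. The Rodentibacter ratios were 280, 5668 and 2326. In a fit of all 48 day 28 libraries, averaged over the arms, the log2 differences of Muribacter were 10.25 ± 0.99 for oral over lung, 10.86 ± 1.0 for oral over colon and 13.91 ± 0.73 for oral over stool (adjusted p = 1.3e-13, 8.6e-15 and 4.9e-28). Those of Rodentibacter were 12.65 ± 1.75, 14.44 ± 1.83 and 13.37 ± 1.68 (adjusted p = 7.2e-08, 3.6e-09 and 2.9e-09). Among all 312 genera, 40.4%, 13.8% and 49.7% passed in these contrasts in either direction. The sizes depended on the scaling. With library totals in place of TMM they were 7.43, 10.01 and 11.20 for Muribacter and 10.71, 13.44 and 11.72 for Rodentibacter.

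The same held for the family as a whole. The family's log2 differences were 8.52 ± 0.88, 10.37 ± 0.95 and 15.13 ± 0.96 for oral over lung, colon and stool, where 46%, 23.4% and 50.4% of all families passed (adjusted p = 4.9e-12, 1.3e-14 and 1.5e-21). With library totals these differences were 5.51, 9.31 and 11.21, so their size, though not the call, depended on the scaling. Of 22 member features tested, 18, 17 and 18 were higher in oral swabs and 0 lower, all of them Muribacter or Rodentibacter. Over all 1465 features 22.7%, 13.9% and 19.9% were called higher in the mouth. A feature could enter this test only with 10 counts in all and detection in 3 libraries, which favours features common in the swabs. Of 61 Muribacter features 53 were seen in oral swabs only, and of 9 Rodentibacter features 4 were. Any of these that were tested met the filter through the swabs alone, so their calls add no support. Muribacter feature 5 had 0 counts in all 48 other libraries. Feature 2 reached at most 175 counts in any library outside the mouth, and feature 3 at most 69.

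**Figure D3:**
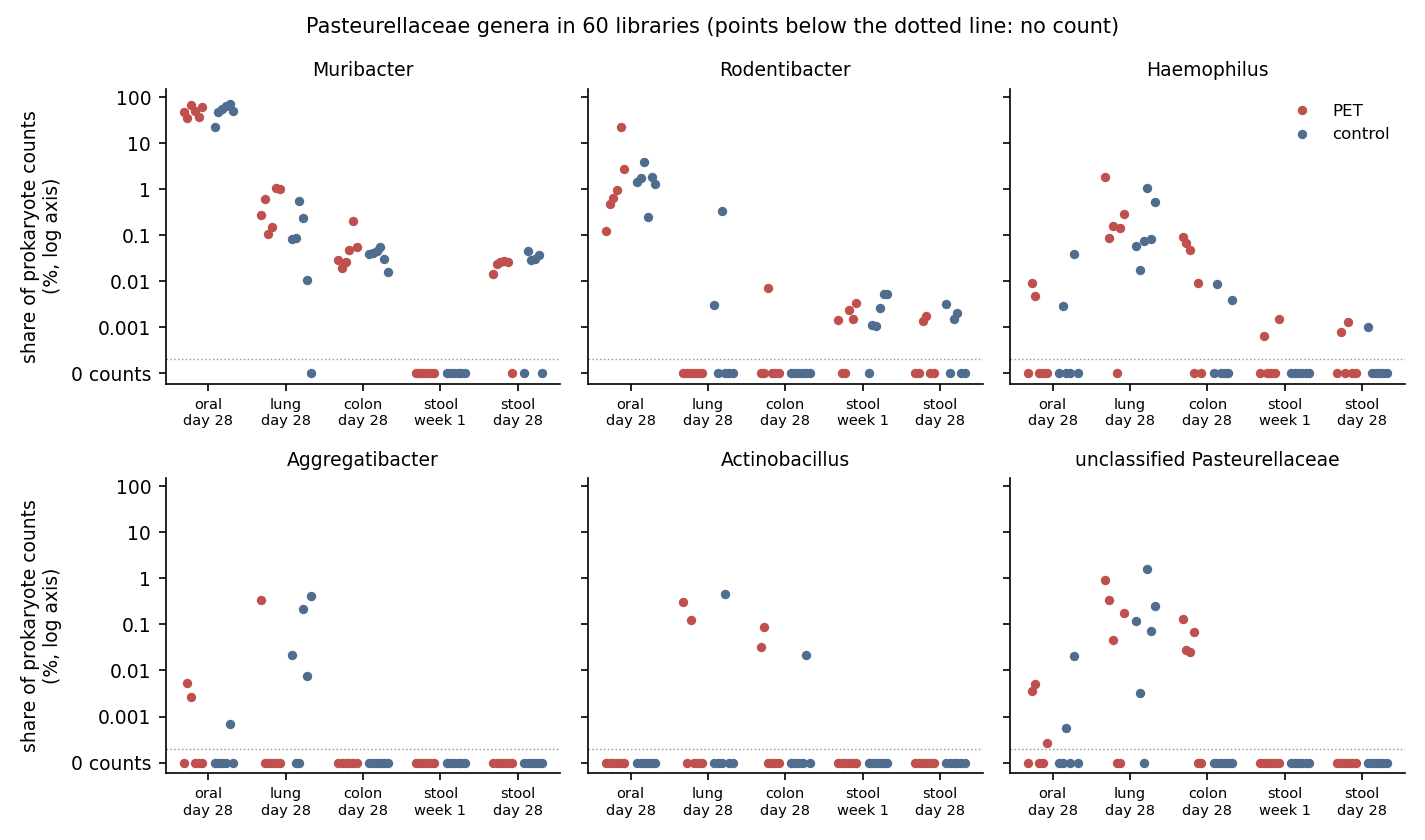
Share of prokaryote counts (%, log axis) of each Pasteurellaceae genus in all 60 libraries, by site and time, with PET libraries left of control libraries and libraries without a count drawn below the dotted line. Muribacter and Rodentibacter are highest in oral swabs, while Haemophilus, Aggregatibacter, Actinobacillus and the features without a genus name are highest in lung.

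The minor genera had the opposite site pattern and were found mainly in lung tissue. Lung held 88.5% of Haemophilus counts, 96.05% of Aggregatibacter, 84.3% of Actinobacillus and 90.7% of the counts without a genus name, while oral swabs held 5.05%, 3.95%, none and 3.02%. Haemophilus averaged 0.00474% ± 0.0114 in oral swabs and 0.363% ± 0.554 in lung (SD, n = 12 each). Its log2 difference, oral over lung, was -5.41 ± 1.5 (adjusted p = 0.0038). The differences were -6.36 ± 1.91 for Aggregatibacter, -5.82 ± 1.61 for features without a genus name and -11.01 ± 2.58 for Actinobacillus (adjusted p = 0.0075, 0.0040 and 0.0012). Of all 312 genera 96 were called lower in oral swabs than in lung and 30 higher, with a median log2 difference of -2.09. The direction was thus the commoner one across genera. With no oral count, Actinobacillus was at least 1101-fold lower in oral swabs than in lung, at a floor of 3 counts over the group, and at least 559.9-fold without control lung 4. Other settings ended each of these calls. DESeq2 and no filter did so for Haemophilus (-3.08 and -2.81) and for features without a genus name (-3.38 and -3.05). Aggregatibacter lost its call with TMMwsp, DESeq2, centred log ratios and no filter (-4.13 to -1.28), and Actinobacillus on centred log ratios (-1.48). The lung Muribacter and Rodentibacter counts all lay in features also seen in swabs (100% of each). For Haemophilus that share was 49.4%. Each feature of the other 3 groups was seen in 1 library only and so could not be shared.

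These lung counts came mostly from a pair of libraries. PET lung library 1 and control lung library 4 held 85.2% of the lung counts of the 4 minor groups, but 33.8% of the lung counts of Muribacter. Haemophilus was at 1.83% in PET library 1 and at most 0.288% in the other PET lungs, and at 1.08% in control library 4 and at most 0.539% in the other control lungs. Features without a genus name were at 0.945% and 1.6% in these same libraries. Without control lung library 4, the oral over lung difference lost its call for Actinobacillus (-5.55, adjusted p = 0.9998) and for features without a genus name (-3.43, adjusted p = 0.060). Without PET lung library 1 it lost its call for Haemophilus (-3.20, adjusted p = 0.073), and for Aggregatibacter it turned to 0.01. The other mouth genera taken for comparison (Streptococcus, Gemella, Neisseria, Fusobacterium, Porphyromonas, Veillonella, Rothia, Actinomyces, Staphylococcus, Leptotrichia and Capnocytophaga) together made up 0.620% to 31.2% of PET lungs and 1.74% to 30.8% of control lungs. Of these 11 genera, 1 (Streptococcus) was higher in oral swabs than in lung and 7 were lower, against 30 and 96 of all 312 genera. Common reagent genera summed to 11.9% ± 8.31 of PET lungs and 6.86% ± 8.88 of control lungs, and their part in the lung counts was not tested.

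Between the other sites the order depended on the genus. Muribacter was higher in lung than in stool (log2 3.66 ± 0.74, adjusted p = 1.7e-05) and higher in colon than in stool (3.05 ± 0.72, adjusted p = 0.00054), and lung over colon gave 0.61 ± 0.67 (adjusted p = 0.510). The stool calls were lost on centred log ratios (0.47 for lung and 1.2 for colon), the lung call also with no low count filter (0.98) and the colon call also with library totals (1.18). Haemophilus was higher in lung than in colon (4.81 ± 1.46, adjusted p = 0.0054), and higher than in stool in both lung (10.61 ± 1.85, adjusted p = 1.4e-06) and colon (5.80 ± 1.5, adjusted p = 0.0017). The lung over colon call was lost with TMMwsp (2.42), DESeq2 (2.63), no filter (3.05) and without PET lung 1 (3.03, adjusted p from 0.079 to 0.161 over these 4). Features without a genus name were higher in lung than in colon (7.40 ± 1.85, adjusted p = 0.0017) a call lost with DESeq2 (3.82, adjusted p = 0.053) and on centred log ratios (2.15, adjusted p = 0.103). They had no count in stool, a lung level at least 5799-fold higher, or 3171-fold without control lung 4. Aggregatibacter had no count in colon or stool, and its lung level was at least 422-fold that of colon and at least 1261-fold that of stool. Without PET lung 1, which held 410 of its 802 lung counts, these bounds were 232-fold and 694-fold and both log2 differences 5.38 (adjusted p = 0.9998 each), past no threshold. Among 312 genera 46.2% passed for lung over colon, 71.5% for lung over stool and 23.1% for colon over stool, so calls in lung against stool were the rule across genera.

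For the family as a whole, lung over stool was 6.61 ± 0.81 and colon over stool 4.76 ± 0.74 (adjusted p = 3.1e-10 and 2.7e-07), where 71.5% and 27.7% of all families passed. The median log2 difference over all families was 7.13 for lung over stool, 2.65 for colon over stool and 2.88 for lung over colon. Lung over colon was 1.85 ± 0.66 (adjusted p = 0.015; 50.4% of families passed), with shares of 1.19% ± 1.24 in lung and 0.103% ± 0.0845 in colon (SD, n = 12 each). This last call was fragile. With library totals in place of TMM scaling the difference was larger (3.81, adjusted p = 8.6e-09). It was lost with TMMwsp scaling (0.49, adjusted p = 0.562), turned to -0.29 with DESeq2, and was lost in 18 of 48 fits that left out 1 library (1.13 to 1.28 in those 18). Those libraries were PET colon 2, 3 and 5, PET lung 1, 4 and 6, control lung 1 to 5, PET oral 1 and 3, and control oral 1 to 5.

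In lung, PET and control libraries did not differ past the threshold for any member. Muribacter was at 0.108% to 1.04% in PET lungs (mean 0.533% ± 0.421) and at 0 to 0.552% in control lungs (mean 0.162% ± 0.210; SD, n = 6 each), with overlapping ranges and a log2 fold change of 1.38 ± 1.43 (adjusted p = 0.969). Haemophilus was at 0.76 ± 1.51, Actinobacillus at 0.09 ± 2.24, Aggregatibacter at -0.01 ± 2.12 and the features without a genus name at -0.46 ± 1.71 (adjusted p = 0.999 each). The family as a whole was at 0.84 ± 1.15 (adjusted p = 0.844). Of 6 features tested 0 passed, with 0 at an unadjusted p under 0.05. Over all taxa 0% of families, 0% of 232 genera and 0% of 454 features passed, with 10, 20 and 54 at an unadjusted p under 0.05.

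Rodentibacter was too rare in lung for a test of its own there. It had no count in the 6 PET lungs, which allows a pooled share of up to 0.00103%, and 10 and 80 counts in control lungs 1 and 3. The difference between the PET effects in lung and in mouth, tested as an interaction over 48 libraries, was -9.84 ± 2.93 for Rodentibacter (adjusted p = 0.047), where 3.85% of 312 genera passed. It was lost without control lung library 3 (-4.88, adjusted p = 0.351), with DESeq2 (-7.34, adjusted p = 0.080), on centred log ratios (-0.99, adjusted p = 0.881), without the 4 lungs under 30000 counts (-4.57, adjusted p = 0.284) and without the libraries of the higher serial range (adjusted p = 0.069) or of that range and the first code run (0.068). It was lost in 19 of 48 fits that left out 1 library in all, the others being each of the 12 oral swabs, control lung 5, PET lungs 3 and 4, PET colons 3 and 4 and control colon 4. The family's interaction of lung against oral was -0.24 ± 1.27 (adjusted p = 0.9998), and 0% of families passed it, with 18 at an unadjusted p under 0.05.

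In colon the minor members lay mostly in PET libraries. Features without a genus name had 145, 38, 24 and 50 counts in PET colons 1 to 4 and none in PET colons 5 and 6 or in the 6 control colons. They were called higher in PET (adjusted p = 0.011), at least 111.8-fold by pooled shares at a floor of 3 counts over the control group. Since no control colon held them, they met the filter of 3 libraries through the PET group alone. Without PET colon 1 the bound was 57.2-fold. Haemophilus was at 0.0915%, 0.0669%, 0.0485% and 0.00896% in PET colons 1, 2, 3 and 5, at 0.00856% and 0.00392% in control colons 2 and 6 and at 0 in the others, with a log2 fold change of 4.44 ± 2.19 (unadjusted p = 0.045, adjusted p = 0.232). Actinobacillus was at 0.0332% and 0.0894% in PET colons 1 and 2, and at 0.0219% in control colon 5 (1.18 ± 2.06, adjusted p = 0.899). Aggregatibacter had none in either arm. In all, the minor groups had 656 counts over 5 of 6 PET colons and 48 over 3 of 6 control colons. PET colons held 27 member features and control colons 9. These numbers are given without the number over all features in each arm, so they are no result about the family. Of the 237 members, 200 were seen in 1 library only.

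Muribacter was present in the colons of both arms. It had 25 to 154 counts in PET colons and 20 to 96 in control colons, with none at 0. Its shares were 0.0630% ± 0.0688 in PET and 0.0382% ± 0.0138 in control colons (SD, n = 6 each), with PET colon 5 highest at 0.201%. The log2 fold change was -0.72 ± 1.49 (adjusted p = 0.908), and it turned to 0.72 with library totals. Rodentibacter had 7 counts in PET colon 3 and none elsewhere in colon. The family's share was 0.163% ± 0.0841 in PET and 0.0439% ± 0.0131 in control colons, and 5 of 6 PET colons lay above the highest control colon. Its log2 fold change of 0.99 ± 1.1 did not pass in edgeR (adjusted p = 0.630), while exact permutation of log2 shares, two-sided, gave a difference of 1.76 (p = 0.0043, adjusted p = 0.0498 over all families).

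**Figure D4:**
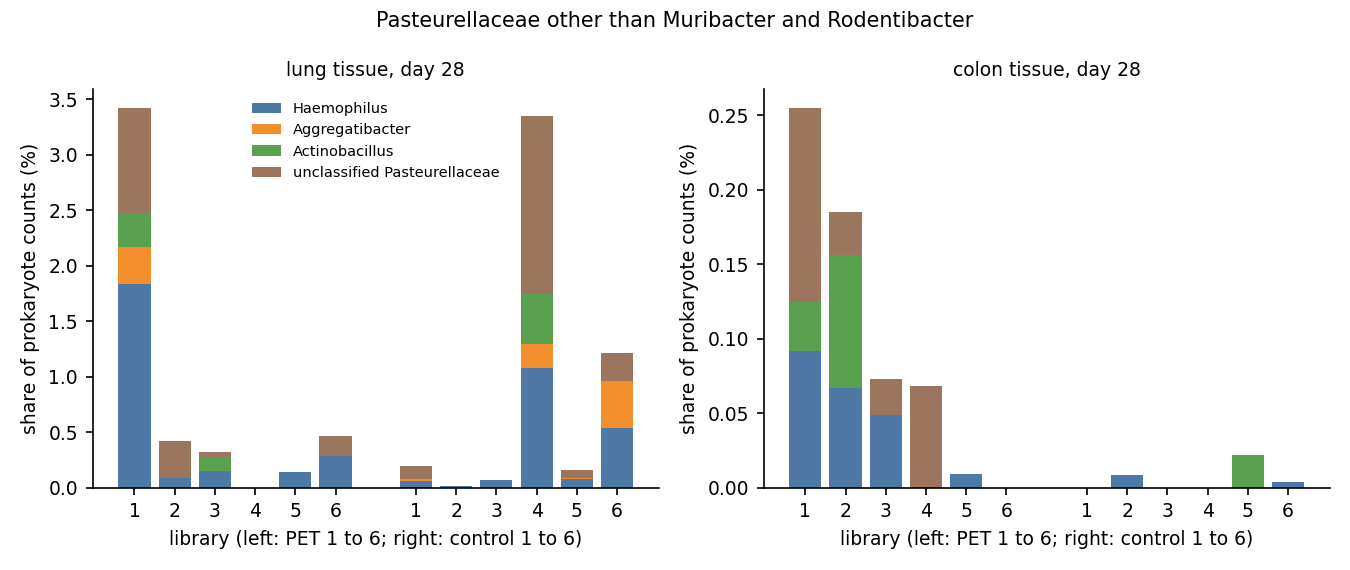
Stacked share of prokaryote counts (%, linear axes from 0, with different scales) of the 4 minor Pasteurellaceae groups in lung (left panel) and colon (right panel) libraries at day 28, PET libraries 1 to 6 left of control libraries 1 to 6. PET lung 1 and control lung 4 tower over the other lungs, and PET colons 1 to 4 over the control colons.

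These colon calls stood among many. Of all families 24.6% passed in the PET and control colon comparison, of genera 15.9% and of features 2.35%, and 0 of 6 member features tested did (1 at an unadjusted p under 0.05). Of the other mouth genera, 7 of 9 tested were higher in PET colons and 0 lower (Capnocytophaga, Fusobacterium, Gemella, Leptotrichia, Neisseria, Porphyromonas and Veillonella), with a median log2 fold change of 8.40 against 0.69 over all genera. Of the 11 mouth genera listed, 4 were detected in any control colon and 11 in PET colons. Genera without a control count met the filter through PET colons alone, so their calls and this median are only a description. The summed share of the mouth genera was 0.0682% to 1.46% in PET colons and 0.0282% to 0.168% in control colons. Their part in the colon result for features without a genus name was not tested. Common reagent genera gave 0 calls among 5 tested by the same edgeR test, with 0 at an unadjusted p under 0.05. The call for features without a genus name was kept in 12 of 12 fits without 1 library (adjusted p from 0.0027 to 0.048). As the group met the filter through PET colons alone, these fits add no support. Its colon counts are a sum over 10 features, each seen in 1 library only. The call was lost on centred log ratios (adjusted p = 0.395) and in the permutation test (adjusted p = 0.173).

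The PET effect in colon was set against that in the mouth in the same way. The interaction was 11.70 ± 3.53 for features without a genus name (adjusted p = 0.027), where 8.65% of 312 genera passed, and it was lost without control oral library 5 (7.62, adjusted p = 0.202), which held 89 of the 91 control oral counts. It was also lost with DESeq2 (8.16, adjusted p = 0.112), on centred log ratios (3.38, adjusted p = 0.785) and without the 4 lungs under 30000 counts (9.49, adjusted p = 0.081). For the family it was -0.54 ± 1.27 (adjusted p = 0.9998; 17.5% of families passed). Among member features it was called for Muribacter feature 4 alone in this fit, while other settings called further members. These were Haemophilus feature 1 with TMMwsp, library totals or DESeq2, Muribacter feature 3 with TMMwsp and Muribacter feature 7 with DESeq2. Muribacter feature 4 was at 16.71 ± 2.89 (adjusted p = 1.1e-05), where 3% of 1465 features passed. In that feature's case the contrast set 22 counts in PET colon 2 and none in control colons against the counts of control swabs 3 and 5 given above.

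In stool the family was at the edge of detection, and the stool times differed in which genus was seen. After 1 week Muribacter had 0 counts in 12 of 12 stool libraries, which allows a pooled share of up to 9.4e-05% in the PET group and 0.000134% in the control group. At day 28 it was detected in 5 of 6 PET stools at 0.0147% to 0.0272% (mean 0.0195% ± 0.0106 over all 6) and in 4 of 6 control stools at 0.0294% to 0.0459% (mean 0.0238% ± 0.0194; SD, n = 6 each). With no count at week 1, the genus met the filter for the time contrast through day 28 alone. Day 28 was at least 223-fold above week 1 in PET and at least 179-fold in control stools by pooled shares. In edgeR the log2 difference was 9.69 ± 2.18 in PET (adjusted p = 0.072) and 9.65 ± 2.35 in control stools (adjusted p = 0.141), and neither passed. Without control day 28 stool library 1 both passed (adjusted p = 0.014 and 0.021), and without control library 6 or PET library 6 of that day the PET difference passed (0.036 and 0.039). DESeq2 placed both past the threshold (adjusted p = 0.00020 and 0.0019). Stool time coincided with a run of label codes, described below, except in control day 28 stools 1 and 6, so time and run cannot be told apart.

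Rodentibacter, in contrast, was seen at both times. It had 0 to 8 counts in day 28 PET stools and 0 to 36 in week 1 PET stools. Control stools had 0 to 19 counts at day 28 and 0 to 30 at week 1. Day 28 over week 1 gave -0.98 ± 1.52 in PET (adjusted p = 0.754) and -1.72 ± 1.55 in control stools (adjusted p = 0.636). The family's difference was 3.73 ± 1.26 in PET and 3.21 ± 1.24 in control stools (adjusted p = 0.110 and 0.206; 0% of 67 families passed in each arm, with 24 and 13 at an unadjusted p under 0.05). For genera 0% of 144 passed in each arm as well, with 42 and 25 at an unadjusted p under 0.05.

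PET and control stools did not differ past the threshold at either time. After 1 week the family was at -0.91 ± 0.94 (adjusted p = 0.725) and Rodentibacter at -1.35 ± 1.13 (adjusted p = 0.733), where 0% of 59 families, 0% of genera and 0% of 728 features passed (7, 14 and 58 at an unadjusted p under 0.05). At day 28 the family was at -0.05 ± 1.26 (adjusted p = 0.988), Muribacter at -0.34 ± 1.47, Rodentibacter at -0.97 ± 1.63 and Haemophilus at 1.0 ± 1.55 (adjusted p from 0.889 to 0.972). There 0% of 54 families, 0% of genera and 0% of 737 features passed, with 5, 9 and 43 at an unadjusted p under 0.05. Neither week 1 (2 features) nor day 28 (5 features) had a member feature called, nor any at an unadjusted p under 0.05. The difference of the PET effect between the times was 0.52 ± 1.59 for the family (adjusted p = 0.9997; 4.48% of families passed).

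Muribacter outside the mouth also followed a code in the library labels. The labels carry a running serial number and a letter-and-number code that runs to its end once and then starts again. The first run holds the 12 week 1 stools and control day 28 stools 1 and 6, and the second all the other libraries. The labels do not say what the code stands for. Muribacter had 0 counts in the 14 libraries of the first run, including both day 28 stools, which allows a pooled share of up to 4.7e-05%. It had 20 to 340 counts in 31 of 31 non-oral libraries of the second run whose serial fell in the lower of 2 ranges. Among the 3 non-oral second-run libraries of the higher range it had 11 counts in 1 (control lung 5) and none in the others (control lung 6 and PET stool 6 of day 28). All 12 oral swabs were in the second run.

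The totals of those 31 libraries ran from 10543 to 528253. The shallowest, PET lung 6, was at 1.012% Muribacter, and the deepest, control stool 3 of day 28, at 0.0294%. Rodentibacter was seen in 10 of 14 first-run libraries and in 7 of the 34 non-oral libraries of the second. Stool time and code run coincide except in those 2 control stools, so their parts in the Muribacter step cannot be told apart. Within the second run and the lower serials, the 5 PET stools had 0.0147% to 0.0272% (median 0.0256%) and the 4 control stools 0.0294% to 0.0459% (median 0.0338%). The groups did not overlap there, yet edgeR gave -0.62 ± 0.51 (adjusted p = 0.897), and 0% of genera had passed in the comparison of all 12. This subset was chosen after the data were seen. It left out every day 28 stool without a Muribacter count, so the lack of overlap is only a description.

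**Figure D5:**
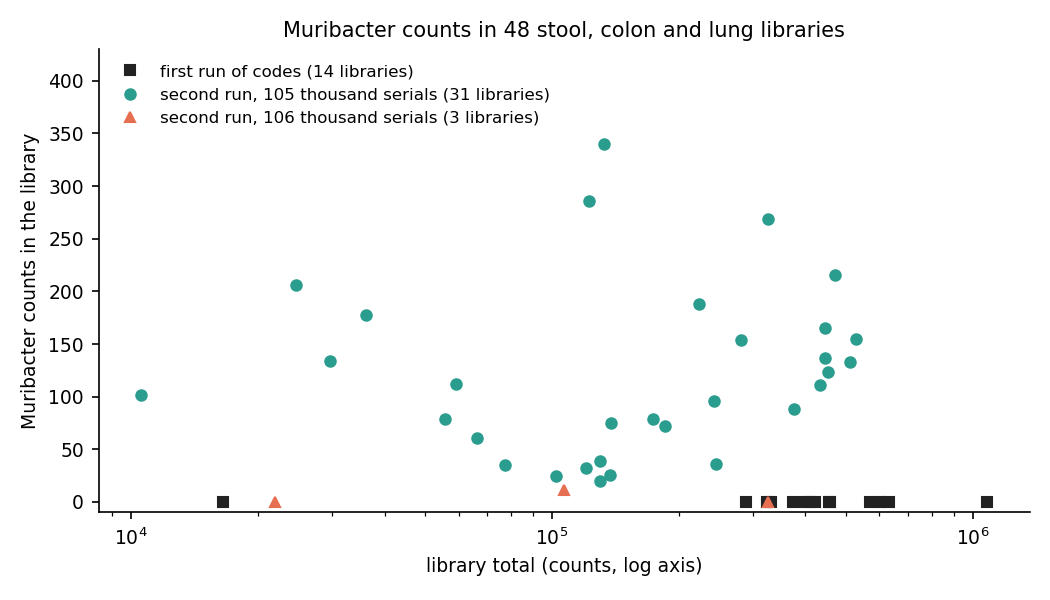
Muribacter counts (linear axis) against the library total (log axis) in the 48 stool, colon and lung libraries, marked by the run of label codes and the serial range. The 14 first-run libraries are all at 0, and the 31 second-run libraries with lower serials hold 20 to 340 counts over the whole range of totals.

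The genera most like the rodent pair across the 48 day 28 libraries included Streptococcus, a leading genus of the mouth. By Spearman correlation of shares among 159 genera compared, Muribacter was closest to Streptococcus (0.817), unclassified Lactobacillales (0.762) and Campylobacter (0.595). Rodentibacter was closest to unclassified Lactobacillales (0.688), Izhakiella (0.626) and Bergeyella (0.599), and its correlation with Muribacter was 0.592. These values are descriptions, since the 12 swabs set them apart from the other sites and shares within a library sum to a fixed total. Streptococcus averaged 26.5% ± 16.7 in PET and 34.02% ± 20.5 in control swabs (SD, n = 6 each).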

How the data were processed

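The deposited table of the authors gives raw counts per sequence feature in 60 libraries of 16S amplicons, and a second deposited table gives each feature's lineage and a classifier confidence as a fraction from 0 to 1. Reads were paired, of 300 bases. Of tools, cutadapt and Bowtie2 appear in the submitters' processing notes, with mouse build GRCm39. Denoising tool, classifier and database: not given in the sources used here. Groups came from the labels.

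Of 8574 features, 7955 had a lineage and the 7922 prokaryote ones, with 99.3% of counts, made up the total. Counts were summed by family and genus. Each comparison was fitted over all taxa with at least 10 counts and detection in at least 3 libraries, by the quasi-likelihood test of edgeR 4.0.16 in R 4.3.3 with TMM scaling, and adjusted by Benjamini-Hochberg at 0.05. Site and interaction contrasts used the 48 day 28 libraries, and time contrasts the 24 stool libraries. Standard errors are the fold change over the square root of F. Of the fits, only edgeR's comparison of PET and control in oral swabs and in day 28 stool was tested on counts simulated with known changes.

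Alternatives were TMMwsp, library totals, DESeq2 1.42.0 with poscounts, limma 3.58.1 on centred log ratios (0.5 added), exact permutation of 924 arrangements, no filter, a filter of 100 counts, all features including those without a lineage, leaving out each library, and leaving out the 4 libraries of the higher serial range. Chosen after seeing the data were fits without control stools 1 and 6 of day 28 and without 4 lungs under 30000 counts. So were fits with the day 28 libraries of the second code run and lower serials alone, and lower bounds of folds without 1 library. Named were all genera, the 10 features with the most counts, any feature called, and for likeness the 3 closest genera detected in at least 12 libraries. The members and lists were chosen with earlier results of these data known. No 2 libraries held identical values (0 pairs).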

Additional observations from a re-analysis of the deposited data

Results flagged for a closer look

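A library was singled out when its gap to the nearest of its group of 6 exceeded Dixon's 95% limit. This met 7 of 29 groups tested. The limit assumes normal values, while these shares are skewed and often 0, and groups of the family contain those of its genera. The number is therefore not set against a chance rate. In oral swabs it was PET library 5 for Rodentibacter, at 22.4%. In colon it was PET library 5 for Muribacter, at 0.201%. In lung it was PET library 1 for Haemophilus (1.83%), for features without a genus name (0.945%) and for the family (3.70%), and control library 4 for features without a genus name (1.6%) and for the family (3.59%).

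PET effects that differed between sites by an interaction test in edgeR were those of Rodentibacter in lung against mouth (-9.84), of features without a genus name in colon against mouth (11.70) and of Muribacter feature 4 in colon against mouth (16.71). Rodentibacter had no count in PET lungs and 90 in control lungs. Features without a genus name had 257 counts in PET colons and none in control colons, and 32 in PET and 91 in control swabs. Muribacter feature 4 had 56 counts in PET swabs and 281665 in control swabs, which came from 2 of them. It had 22 counts in PET colons and 0 in control colons.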

How the results depend on the processing

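Over the family's comparisons, 140 of 163 values under alternative settings and 488 of 516 with 1 library left out kept their direction and side of the threshold, and for the genera 350 of 414 and 1302 of 1356. Oral over lung, colon and stool kept its call for the family, Muribacter and Rodentibacter under each of these. Of member features 0 were called for PET over control in 44 of 45 values under alternative settings, and 2 by DESeq2 in swabs. Values are log2 differences, and the cause of a change was not tested.

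For the family, PET over control in day 28 stool turned to 0.29 on centred log ratios and 0.013 by permutation, and in colon it passed by permutation (1.76). Lung over colon lost its call with TMMwsp (0.49), centred log ratios (0.32), no filter (0.91), the stricter filter (1.04), all features (1.21) and without lungs under 30000 counts (1.26), and turned to -0.29 with DESeq2. Colon over stool lost it on centred log ratios (1.55). The interaction of lung against oral turned to 0.30 with library totals and 0.028 on centred log ratios, and that of colon against oral to 1.84, 0.44 and, with all features, 0.063. Day 28 over week 1 passed with DESeq2 (3.97 in PET, 3.18 in control). It also passed with the day 28 stools of the second code run and lower serials alone (3.91 and 3.87). All week 1 stools are in the first code run, so time and run coincide fully in that setting. For PET it passed without the higher serials (4.02) as well. The same held without control stools 1 and 6 (3.44), where time and run also coincide and the interaction of the times turned to -0.031.

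Among the genera, PET over control turned sign as follows. In stool at day 28, Muribacter gave 0.89 on centred log ratios and 0.94 by permutation. In colon, Muribacter gave 0.72 with library totals and 0.32 by permutation, and Actinobacillus -0.56 with TMMwsp. In lung, Actinobacillus gave -0.075 with library totals and -0.49 without the higher serials, Haemophilus -0.67 on centred log ratios and -0.31 by permutation, and features without a genus name 0.027 without lungs under 30000 counts. Aggregatibacter in lung gave 0.013 with DESeq2, 0.16 without a filter, 0.33 with all features, 0.053 without the higher serials and 1.19 without lungs under 30000 counts. In swabs, Muribacter gave -0.035 with library totals, and centred log ratios and permutation gave -0.14 and -0.23 for Rodentibacter, 0.14 and 0.053 for Haemophilus, and 0.69 and 0.60 for features without a genus name. Actinobacillus in lung over colon gave -0.34 with TMMwsp, -0.28 with DESeq2 and -0.76 on centred log ratios.

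With 1 library left out, the family ranged from -0.10 to 1.59 for PET over control in colon, -0.16 to 1.23 in lung and -0.47 to 0.19 in day 28 stool, 1.13 to 2.38 for lung over colon, -1.58 to 1.14 for lung against oral and -0.79 to 0.52 for colon against oral. PET over control in lung ranged from -0.17 to 0.79 for Actinobacillus, -8.77 to 0.84 for Aggregatibacter, -1.51 to 2.27 for Haemophilus and -2.27 to 1.91 for features without a genus name. In swabs it ranged from -3.09 to 1.82 for Haemophilus, -0.077 to 1.06 for Rodentibacter and -3.06 to 3.17 for features without a genus name, and in colon from -1.18 to 0.34 for Muribacter. Actinobacillus in lung over colon ranged from -3.79 to 6.59, and Aggregatibacter in oral over lung from -7.83 to 0.015.

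No paired analysis was possible because no label ties libraries of one mouse across sites or times. The median over all genera for PET over control in colon was 0.69, against 0.04 with TMMwsp and 0.96 with library totals, and the median family in lung over colon was 2.88, 1.78 and 3.87. Depth limits the lung and week 1 stool values most: thinned to 16513 counts, Rodentibacter would be seen in 1.2 of 6 PET and 1.87 of 6 control week 1 stools, where 4 and 5 held it.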
